A study of Drosophila melanogaster with 8 samples.

Results

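Salivary glands were compared with eyes of Drosophila melanogaster, strain Oregon R, in 4 of the 8 libraries of the series, chosen by the tissue and sex in the labels: female and male salivary glands and female and male eyes. The series, whose title asks about sex-specific splicing of qtc (quick-to-court), also holds heads of both sexes, ovaries and testes. All libraries are long-read cDNA amplified with primers for both ends of the qtc transcripts (RACE), so the levels of every gene are those of amplified libraries. The labels name no treatment or mutation. Flies were kept at 25 °C and were 5 to 7 days old, counted from hatching, as the protocols in the labels put it. The labels do not say how the glands were isolated or from which stage. Of 14292 genes with summed counts, 1023 had at least 10 counts in at least 2 of the 4 libraries and were tested.

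As background, the salivary gland of the fly larva is a secretory organ that fills with glue proteins before the pupa forms and releases them to fix the animal to its substrate. The compound eye is made of photoreceptor neurons, pigment and lens-secreting cells: light activates a rhodopsin, a G protein and a phospholipase, and the TRP channels open, while arrestins shut the rhodopsin off. The larval fat body makes the serum storage proteins, and the glue and serum genes are known from late larval life. In such bulk libraries, fewer cells of a type and less RNA per cell cannot be told apart.

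The 4 libraries held 125553 to 151380 gene counts. Before scaling, 3 counts, the limit that a count of 0 allows, corresponded to 19.8 to 23.9 counts per 1000000. Rows named as rRNA took 7.93% of female and 7.86% of male gland counts, against 23.9% of female and 22.0% of male eye counts. The female eye library stood apart: eggshell genes took 8.37% of its counts, against 0.0239% of male eyes. Of its 11992 eggshell counts, 11807 were of 1 gene, Cp15. Each tissue has 1 library per sex and no replicate animals, so the error of every fold below comes from how differently the 2 sexes behaved, with 1 residual degree of freedom and a spread moderated across genes.

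Most glue genes tested and several larval serum genes were higher in salivary glands, and rhodopsins, genes of the visual cascade and lens genes were higher in eyes. By edgeR's quasi-likelihood test with sex as the pair, at a Benjamini-Hochberg adjusted p under 0.05, 54 genes (5.28% of those tested) were higher in salivary glands and 89 (8.7%) were lower. The adjusted p of these calls lay between 0.0315 and 0.0489, close to the threshold, and 382 genes had an unadjusted p under 0.05. The median log2 fold change, glands over eyes, was -0.01 over all genes tested, and the smallest called changes were 3.53 and -3.72, and no smaller change passed.

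The higher genes took 15.9% of female and 13.1% of male gland counts and 0.188% and 0.314% of eye counts. The lower genes took 13.2% of female and 30.4% of male eye counts and 0.175% and 0.208% of gland counts. In all 143 called genes the difference had the same direction in females and in males, as in 793 of the 1023 genes tested. Of the higher genes 8 had no count in either eye library, and of the lower genes 41 had none in either gland library. The count minimum let 197 genes in through the glands alone and 195 through the eyes alone. A gene that passed in this way had to differ, so counts of list members that passed describe the lists and give no support.

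The number of calls rested on the settings. With the rRNA-named rows and qtc left out no gene passed (edgeR, smallest adjusted p 0.0574, 364 of 1014 at an unadjusted p under 0.05), nor did any at a minimum of 30 counts (0.089, 171 of 443). With upper-quartile scaling 162 were higher and 164 lower. Fits that left out 1 library also dropped the sex term, so their like comparator is the fit of all 4 libraries without that term. Over the genes each tested, the median log2 fold change was 0.37 without the female and 0.26 without the male eye library. It was -0.29 without the female and -0.36 without the male gland library, against -0.12 in that comparator. Each of the 143 genes that could be tested in these settings kept its direction. These settings refit the same gland and eye counts, so this gives no support to the calls.

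**Figure D1:**
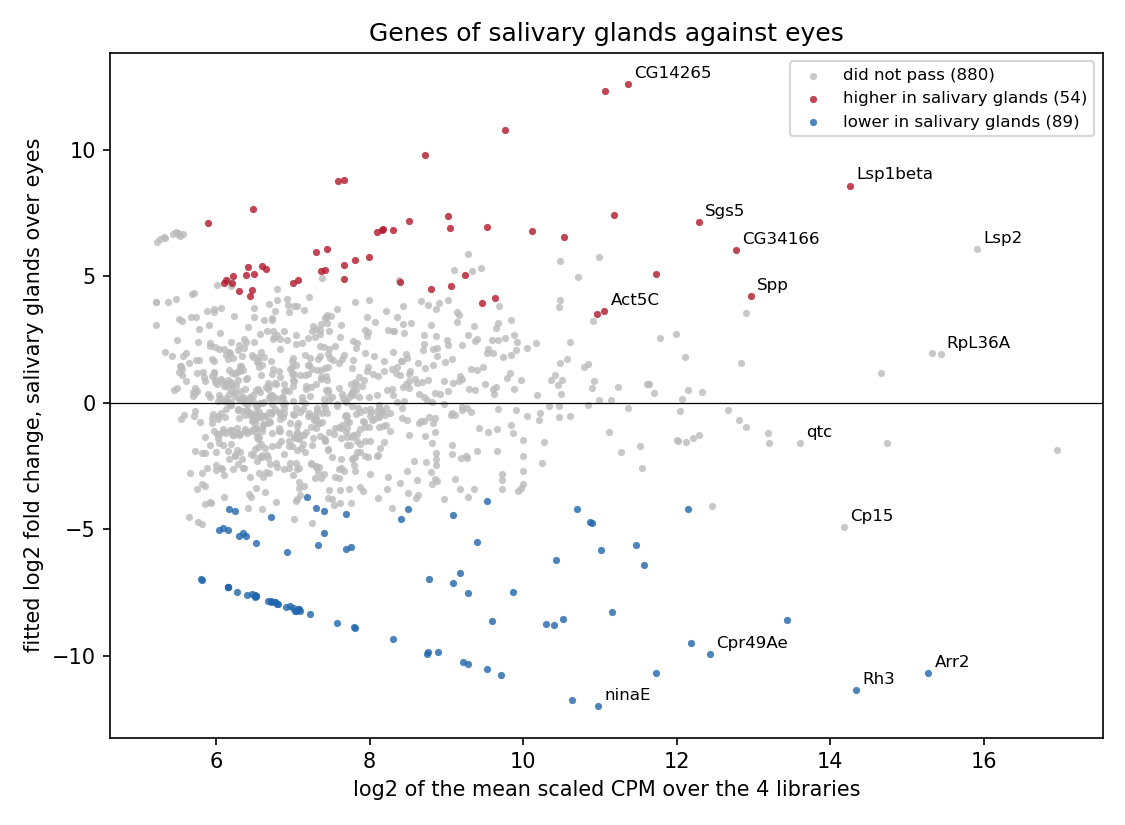
Each point is 1 of 1023 genes: the horizontal axis is log2 of its mean scaled counts per 1000000 (CPM) over the 4 libraries, the vertical axis its fitted log2 fold change, salivary glands over eyes. The 54 genes higher in glands (red) and 89 lower (blue) lie far from 0, and grey genes did not pass. Fitted values of genes with no count in 1 tissue depend on the prior count.

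The secreted glue was the clearest gland group. Of 15 annotated glue genes, 11 passed the count minimum, 6 of them through the glands alone, and 7 were higher in glands and 0 lower. All 11 were higher in glands in both sexes, with a median log2 fold change of 6.55. Of the untested members, Muc55B and Muc68Ca had counts in glands only, Muc68D had 7 in female eyes only, and ng4 had none. Together the 15 genes took 2.89% of female and 2.57% of male gland counts, against 0.00837% of female and 0.094% of male eye counts.

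Sgs5, which encodes a glue protein, had 1705 counts in female and 1356 in male glands, 3 in female and 19 in male eyes. Both gland values were far above both eye values, and the log2 fold change was 7.14 ± 1.40 (SE; edgeR, adjusted p 0.0343). Per length, Sgs7 stood highest of the glue genes named here, at 25843 transcripts per 1000000 (TPM) in female and 21457 in male glands, with Sgs5 at 20439 and 18927. These 2 neighbours in the order differed by less in males than the sexes differed within Sgs7.

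Sgs7 and Sgs8, small neighbouring glue genes, behaved alike: Sgs7 had 397, 283, 0 and 6 counts in female glands, male glands, female eyes and male eyes, an order kept below. Sgs8 had 252, 201, 0 and 3. Their gland values did not overlap their eye values, with log2 fold changes of 6.78 ± 1.66 and 6.95 ± 1.53 (edgeR, adjusted p 0.0408 and 0.0343). How many of all genes tested lacked such overlap was not counted, and the test favours genes whose tissues stand apart. Here and for the other called genes, non-overlap therefore describes the counts and gives no support to the calls.

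Sgs1, a large repetitive mucin-like glue gene, had 282 and 48 counts in glands, 0 and 1 in eyes. It was the least even of the called glue genes between the sexes. Over both sexes its scaled counts were 272-fold higher in glands, with a counting interval of 48.6 to 10792, which covers counting error only. The new glue gene ng3 had 188 and 138 counts in glands and 0 and 2 in eyes (135-fold, 37.0 to 1116), and Sgs5bis had 37 and 68 against 1 and 0 (86.7-fold, 15.2 to 3456). All 3 were higher in glands by edgeR, with adjusted p of 0.0361, 0.0343 and 0.0343.

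Eig71Ee, an ecdysone-induced gene of the glue group, had 474 and 421 counts in glands and 0 and 12 in eyes. The tissues did not overlap, and the log2 fold change was 6.55 ± 1.74 (edgeR, adjusted p 0.0474). The 4 tested glue genes that did not pass were also higher in glands in both sexes. Sgs3 had 267 and 124 counts against 1 and 8 (5.20 ± 1.47, edgeR adjusted p 0.053), and ng2 had 330 and 495 against 0 and 31 (5.61 ± 1.80, 0.072). Sgs4 had 228 and 184 against 0 and 13 (5.33 ± 1.73, 0.074), and ng1 had 212 and 78 against 0 and 23 (4.07 ± 2.17, 0.211).

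**Figure D2:**
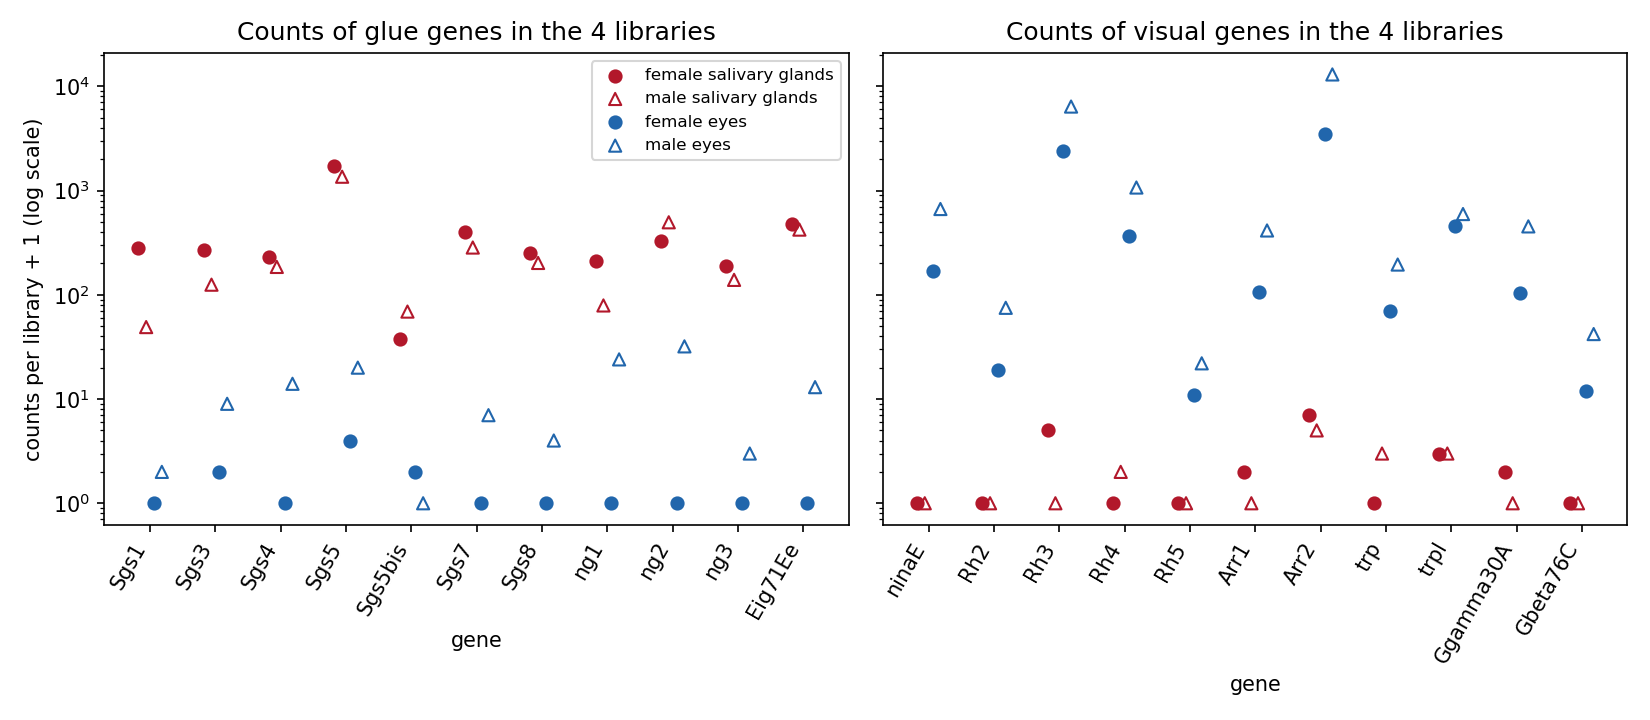
Counts per library plus 1 (log axis) of 11 glue genes (left) and 11 visual genes (right). Red marks are salivary glands and blue marks eyes, filled circles females and open triangles males. Each plotted glue gene is highest in the gland libraries and each plotted visual gene in the eye libraries. All plotted genes passed the count minimum, the visual genes through the eyes alone, and untested list members are not shown.

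Transcription factors that direct salivary gland fate were scarce. Of 16 regulators and enzymes in the table, 2 passed the count minimum, both through the glands alone, and neither passed the test. sage, a gland-specific bHLH factor, had 13 and 17 counts in glands and 0 and 1 in eyes (4.30 ± 1.38, edgeR adjusted p 0.0724). fkh, the forkhead factor, had 21 and 11 against 8 and 0 (2.20 ± 1.12, 0.192). Scr, trh, hkb, rib and the prolyl hydroxylase gene PH4alphaSG2 were at 0 in all 4 libraries, and CrebA, which drives secretory genes in the embryonic gland, had 2 counts in male glands only. Among polypeptide GalNAc transferases, which start mucin glycosylation, 1 of 12 was tested: Pgant1, at 534, 259, 233 and 117 counts (0.85 ± 0.84, edgeR adjusted p 0.503).

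The genes of protein export took a larger share of gland than of eye counts, while few passed singly. Of 57 secretory-pathway genes, 31 passed the count minimum, 16 through glands alone, and 29 of the 31 were higher in glands in both sexes. The count minimum favoured that direction for the 16, so the 29 and the median describe the list and give no support. Their median log2 fold change was 2.14, or 2.08 with genes at 0 in eyes set to their lower bound, and 1 was called. The list took 1.78% and 1.57% of gland counts against 0.358% and 0.261% of eye counts.

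The called gene was loj (logjam), a p24 cargo receptor, with 191 and 212 counts in glands and 7 and 15 in eyes, without overlap (3.93 ± 1.05, edgeR adjusted p 0.0487). Ost48, a subunit of the oligosaccharyltransferase that glycosylates proteins entering the endoplasmic reticulum, had 652 and 434 counts against 57 and 35 (3.25 ± 0.90, 0.0518). Srp72, of the signal recognition particle, had 75 and 72 against 2 and 5 (4.07 ± 1.11, 0.0512). Neither passed, nor did the p24 gene CHOp24, with 46 and 26 counts against 1 and 2 (4.12 ± 1.17, edgeR adjusted p 0.0531).

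Spp, the signal peptide peptidase, was not on the list but was called: it had 3376 and 1422 counts in glands and 113 and 79 in eyes. The gland values were above both eye values, with a log2 fold change of 4.21 ± 0.99 (edgeR, adjusted p 0.0363). gny, a glucosyltransferase of the N-glycan precursor, had 18 and 35 counts in glands against 0 and 1 in eyes and was also higher (43.7-fold, 7.52 to 1760; edgeR, adjusted p 0.0416).

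Of the 54 higher genes 22 have only a CG number, as do 25 of the 89 lower genes and 231 of the 1023 tested. CG14265 had 1007 and 641 counts in glands and none in eyes, at least 210-fold higher with 3 counts per eye library as the floor (edgeR, adjusted p 0.0315). CG12715 had 940 and 411 and none in eyes, at least 171-fold higher (0.0315). CG34166 reached 2674 and 1606 counts in glands against 24 and 26 in eyes (6.04 ± 1.09, edgeR adjusted p 0.0343). At 42074 and 29871 TPM it stood above Sgs7 in both gland libraries.

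CG7567 had 175 and 354 counts in glands and none in eyes, at least 69.3-fold higher (edgeR, adjusted p 0.0343). CG7606 (61 and 64, none in eyes) and CG32198 (59 and 60, none in eyes) were at least 16.1-fold and 15.3-fold higher. Both sexes had like counts of these last 2 genes, and edgeR gave 0.0343 for both. CG42460 had 69 and 96 counts in glands against 0 and 1 in eyes (136-fold, 24.1 to 5412; 0.0343), and CG11786 had 29 and 26 and none in eyes, at least 7.07-fold higher (0.0343).

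Some of the called genes lay near each other. In BDGP6 coordinates, 16 of the 54 higher genes fell into 7 groups with at most 10 kb between members, against 10 of the 89 lower genes in 5 groups. These counts were not tested, and no such count was made over all genes tested. They therefore do not show that either set is clustered. Paralogs of near-identical sequence in a group can share reads. The largest groups were Sgs5bis, Sgs5 and CG7606 on chromosome 3R (17594386 to 17598453) and CG14265, ng3 and Pig1, a pre-intermoult gene, on chromosome X (3236130 to 3249289). Sgs8 and Sgs7 formed a pair on 3L (11508967 to 11510247).

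The tetraspanin genes Tsp42Ek and Tsp42Ej, which overlap on the same strand, went in opposite directions. Tsp42Ek had 23, 22, 1 and 0 counts and was higher in glands (37.1-fold, 6.34 to 1499; edgeR, adjusted p 0.0396). Tsp42Ej had 1, 1, 56 and 44 and was higher in eyes (60.6-fold, 16.3 to 507; edgeR, adjusted p 0.0343). Reads in their shared stretch cannot be assigned with certainty.

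Serum proteins and other fat body genes made the largest gland share of the lists examined apart from ribosomal proteins. The 27 genes took 19.1% of female and 18.3% of male gland counts, 0.17% of female and 1.43% of male eye counts. Of 16 tested, 7 through glands alone, 4 were higher in glands and 0 lower, with a median log2 fold change of 3.89. The fold change was positive in 13 and negative in 3, of which 2 were lower in glands in both sexes. These were apolpp, at 23 and 6 counts in glands and 32 and 57 in eyes, and Tsf1, at 6 and 4 against 15 and 11. LManI and Lip3 were at 0 in all 4 libraries.

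Lsp1beta, a larval serum protein subunit, had 7129 and 4974 counts in glands and 5 and 26 in eyes (8.59 ± 1.43, edgeR adjusted p 0.0343). Lsp1gamma had 874 and 563 against 1 and 6 (7.44 ± 1.38, 0.0343), and the fat body receptor gene Fbp1 had 50 and 52 against 0 and 2 (42.1-fold, 11.4 to 352; edgeR, adjusted p 0.043). Obp99b, an odorant-binding protein gene, had 1168 and 846 against 9 and 54 (5.09 ± 1.33, 0.0458). In all 4 the gland values stood apart from the eye values.

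Lsp2 was the most counted named gene of the glands, at 18587 and 17135 counts, and had 31 in female and 1378 in male eyes. That difference of the eye libraries went with an SE of 1.94 on a log2 fold change of 6.07, and it did not pass (edgeR, adjusted p 0.0717). Glue genes showed the same order: 118 counts of the list were in male eyes and 12 in female eyes. Fbp2, an alcohol dehydrogenase-like fat body protein, had 230, 148, 0 and 6 counts (5.90 ± 1.64, edgeR adjusted p 0.0518). What part fat body RNA had in the gland libraries, or gland and fat body RNA in the male eye library, was not tested.

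**Figure D3:**
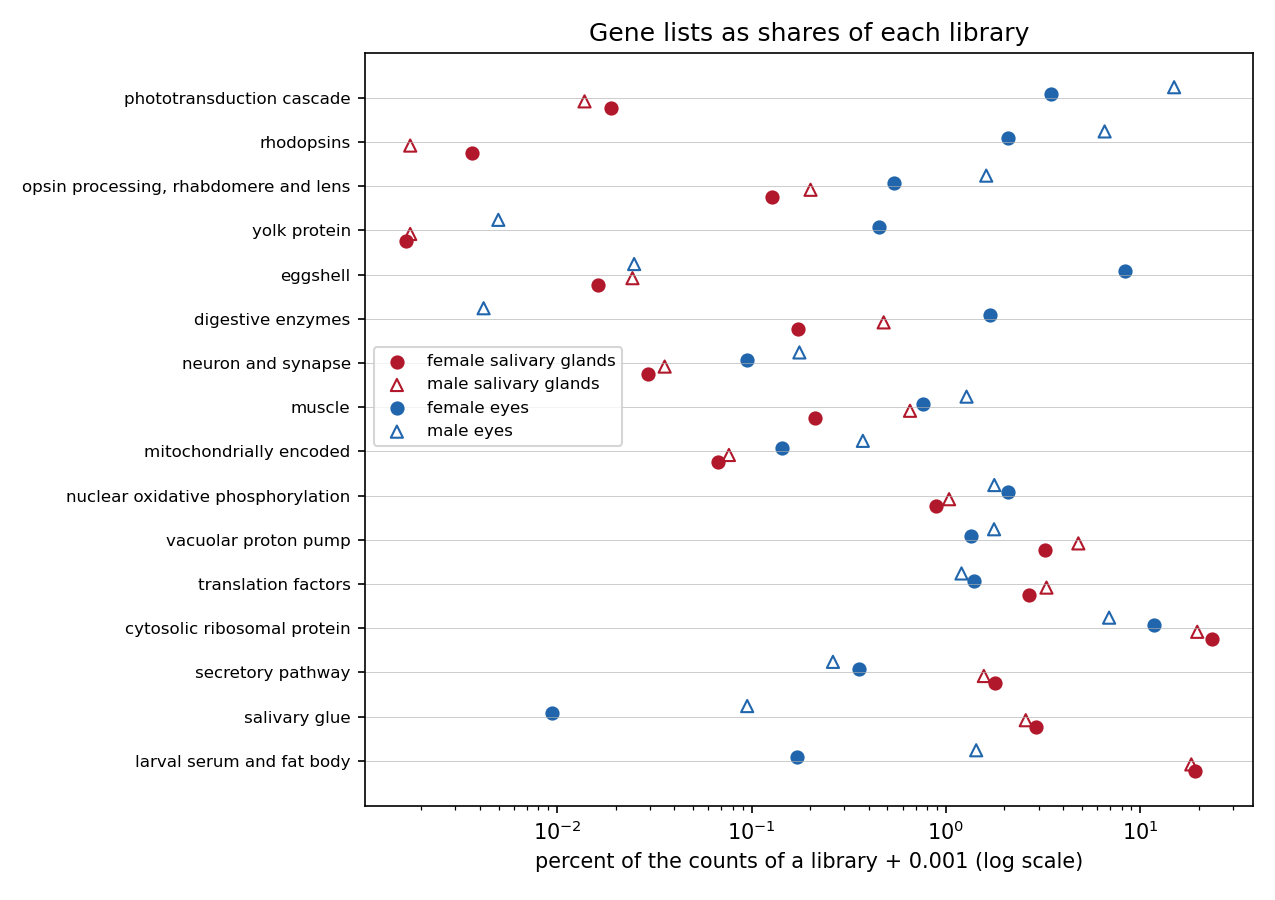
Summed counts of 16 gene lists as percent of each library plus 0.001 (log axis). Red marks are salivary glands, blue marks eyes, filled circles females and open triangles males. Serum and glue genes separate glands from eyes at the bottom of the plot, visual genes at the top, and eggshell, yolk and digestive genes stand high in female eyes alone among the eye libraries.

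Further genes higher in glands included 2 serpin and 2 actin-related genes. The serpin gene Spn43Aa had 102 and 155 counts in glands and none in eyes, at least 33.5-fold higher (edgeR, adjusted p 0.0343). Spn42Dc, another serpin gene, had 120 and 104 against 0 and 1 (185-fold, 32.8 to 7336; 0.0343). Act5C, a cytoplasmic actin gene, had 534 and 663 counts against 29 and 51 (3.62 ± 0.94, edgeR adjusted p 0.0448); reads shared with other actin genes make its counts uncertain.

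cib (ciboulot), an actin monomer-binding protein gene, had 420 and 701 counts in glands against 38 and 37 in eyes (3.53 ± 0.90, edgeR adjusted p 0.044). Hsp23, a small heat shock protein gene, had 61 and 60 against 1 and 2 (33.3-fold, 11.1 to 164; 0.0359). Lsd-1, a perilipin of lipid droplets, had 35 and 26 against 0 and 1 (50.4-fold, 8.70 to 2021; 0.044), and Ldh, lactate dehydrogenase, 16 and 58 against 0 and 2 (30.5-fold, 8.16 to 257; 0.0465). In each of these genes both gland values were above both eye values. Their lists were not of one direction: of 5 tested lipid storage and synthesis genes Lsd-1 was the one higher in glands, with a list median log2 fold change of -1.63, and FASN1, fatty acid synthase, had 38, 16, 281 and 173 counts (-3.47 ± 0.98, edgeR adjusted p 0.0531). Of 7 tested heat shock and chaperone genes Hsp23 was the one called, and the list took 0.34% of female gland against 0.749% of female eye counts but 1.2% against 0.345% in males.

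Rhodopsins are the light receptors of the eye. Of 6 rhodopsin genes 5 passed the count minimum, all through the eyes alone, and all 5 were lower in glands. The list took 2.08% of female and 6.55% of male eye counts. The gland libraries held 4 counts of the list in females and 1 in males.

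Rh3, an ultraviolet opsin of the inner photoreceptors, had 4, 0, 2418 and 6391 counts and was 2668-fold higher in eyes (1042 to 9794; edgeR log2 fold change glands over eyes -11.35 ± 1.92, adjusted p 0.0343). Rh4, the other ultraviolet opsin, had 0, 1, 364 and 1068 (1735-fold, 311 to 68568; 0.0315). ninaE, the Rh1 opsin of the outer photoreceptors, had none in glands, 167 in female and 664 in male eyes, at least 207-fold higher in eyes (0.0316). Each was higher in male than in female eyes and without overlap with glands.

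Per length, Rh3 stood at 10890 TPM in female and 43459 in male eyes, above Rh4 at 1704 and 7542 and ninaE at 642 and 3848. This order, Rh3, Rh4, ninaE, was the same in both eye libraries. Whether it follows RNA levels before amplification was not tested. Rh2, the opsin of the ocelli, had 18 and 74 counts in eyes and none in glands (at least 22.9-fold, edgeR adjusted p 0.0343). Rh5, a blue opsin, had 10 and 21 (at least 7.29-fold, 0.0359), and the untested Rh7 had 3 in each eye library.

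The cascade behind the rhodopsins followed. Of 27 genes 10 passed the count minimum, all through the eyes alone and all 10 called lower in glands. Some untested members did not lean to the eyes, such as inaE at 1, 0, 0 and 0 counts and santa-maria at 2, 1, 1 and 1. Others did, such as inaC at 0, 0, 4 and 25. The list took 3.48% of female and 14.9% of male eye counts against 0.0178% and 0.0128% of gland counts. Arr2, the main arrestin, had 6 and 4 counts in glands and 3484 and 12993 in eyes (-10.68 ± 1.43, edgeR adjusted p 0.0315), and Arr1 had 1 and 0 against 106 and 413 (629-fold higher in eyes, 112 to 24881; 0.0343). Arr2 was the higher of the arrestins per length in both eye libraries, at 13801 and 77726 TPM against 439 and 2464 for Arr1.

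Both light-activated channels were eye genes. trpl had 2, 2, 460 and 594 counts (-8.27 ± 1.17, edgeR adjusted p 0.0315), and trp had 0, 2, 69 and 194 (159-fold higher in eyes, 43.7 to 1322; 0.0343). Per length, trpl stood above trp in female eyes, at 652 and 91.7 TPM, and in male eyes, at 1279 and 387. Of the G protein, the gamma subunit gene Ggamma30A had 1, 0, 102 and 452 counts (671-fold, 120 to 26556) and the beta subunit gene Gbeta76C 0, 0, 11 and 41 (at least 12.9-fold), both with an edgeR adjusted p of 0.0343.

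The alpha subunit gene Galphaq (0, 0, 6 and 21 counts) and the phospholipase gene norpA (0, 0, 9 and 42) reached 10 counts in male eyes alone and were not tested. Cam, calmodulin, which regulates the channels, had 9, 2, 667 and 3809 counts (-8.60 ± 1.76, edgeR adjusted p 0.0343). rdgA (diacylglycerol kinase), ninaC (a myosin kinase) and Pis (phosphatidylinositol synthase) had no counts in glands and 15 and 31, 11 and 35, and 12 and 14 in eyes. They were at least 10.8-fold, 11.2-fold and 5.72-fold higher in eyes, with edgeR adjusted p of 0.0343, 0.0343 and 0.0464.

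Of 20 opsin maturation, rhabdomere and lens genes 7 were tested, 5 of them through the eyes alone, and 4 were lower in glands. ninaA, the rhodopsin chaperone, had 54 and 133 counts in eyes and none in glands (at least 44.7-fold, edgeR adjusted p 0.0343), but it lies within CG15824 on the opposite strand, which had 25 and 70. Pdh, a retinoid dehydrogenase, had 55 and 193 and none in glands (at least 61.1-fold, 0.0343), and the corneal gene Cpr72Ec 25 and 37 and none (at least 14.03-fold, 0.0343). retinin, a corneal lens protein gene, had 3, 0, 537 and 1445 counts (800-fold, 273 to 3884; edgeR, adjusted p 0.0343). Eye pigment genes separated the tissues far less: of 23 genes 2 were tested and 0 called. They were dor, at 11, 12, 3 and 2 counts, and Hn, at 81, 53, 86 and 129. The pigment list took 0.0727% and 0.071% of gland counts against 0.0858% and 0.141% of eye counts.

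The members that did not pass were glob1 and, higher in glands, Rab6 and crb. Rab6, a Golgi GTPase needed for rhodopsin transport, had 89 and 82 counts in glands against 9 and 10 in eyes (2.83 ± 0.96, edgeR adjusted p 0.0811). Cpr49Ae, a cuticle protein gene, had the smallest p of the eye genes: 1, 2, 889 and 1574 counts (995-fold higher in eyes, 340 to 4826; edgeR, adjusted p 0.0315). Cpn, calphotin, a calcium-binding photoreceptor protein, had 86 and 266 counts in eyes and none in glands (at least 85.9-fold, 0.0343). Its tissues, like those of Cpr49Ae, did not overlap.

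Other genes with the smallest p or largest folds on the eye side have no part in the visual lists. Nplp3, a neuropeptide-like precursor gene, had 1, 1, 278 and 390 counts (405-fold higher in eyes, 112 to 3348; edgeR, adjusted p 0.0315). EbpIII, an ejaculatory bulb protein gene, had 0, 1, 161 and 198 (435-fold, 77.6 to 17225; 0.0343), and dpy (dumpy), a giant apical matrix protein gene, 48 and 252 in eyes and none in glands (at least 76.0-fold, 0.0343). Both eye libraries held each of these 3 genes well above the glands.

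CG45263 and whe were higher in female than in male eyes, unlike the visual genes. CG45263 had 952 and 39 counts in eyes and none in glands (at least 163-fold, edgeR adjusted p 0.0343), and whe 218 and 34 and none (at least 44.1-fold, 0.0343). Jhbp3, with 54 and 203 and none (at least 63.7-fold, 0.0343), and the cytochrome P450 gene Cyp313a1, with 11 and 174 and none (at least 48.9-fold, 0.0343), were higher in male eyes. The most counted rows of the eyes, rRNA-named, did not pass: 28SrRNA-Psi:CR45859 had 9133, 7820, 27700 and 21478 counts (-1.85 ± 0.75, 0.12) and 28SrRNA-Psi:CR40596 had 2189, 2007, 5319 and 4628 (-1.57 ± 0.80, 0.193).

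Neuronal and amine genes were sparse at this depth. Of 28 neuron and synapse genes 4 were tested, 3 through the eyes and 1 through the glands alone, and 2 were lower in glands. unc-13, of synaptic vesicle priming, had 0, 0, 22 and 29 counts (at least 11.4-fold higher in eyes). Atpalpha, the sodium pump, had 0, 1, 21 and 33 (65.4-fold, 11.3 to 2631), both genes with an edgeR adjusted p of 0.0343. Syt1, a synaptotagmin gene, went the other way without passing, at 36, 38, 1 and 3 (3.84 ± 1.10, 0.0546). elav, the pan-neuronal RNA-binding protein gene, had 0, 1, 1 and 1 counts.

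In amine metabolism, e (ebony), which conjugates beta-alanine to histamine and dopamine, had 2, 1, 270 and 193 counts (187-fold higher in eyes, 63.6 to 910; edgeR, adjusted p 0.0343). ple, tyrosine hydroxylase, had 0, 2, 36 and 144 (109-fold, 29.7 to 907; 0.0343). These 2 genes passed the count minimum through the eyes alone. Of the 12 genes on this list the other 10 missed it, including the histamine receptor gene ort at 0 in all 4 libraries.

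Energy metabolism gave few calls. Of 95 nuclear genes of oxidative phosphorylation 22 were tested, 7 of them through the eyes alone. Of the 22, 21 were lower in glands in both sexes and 1 was called, with a median log2 fold change of -1.59. The count minimum favoured that direction for the 7. The whole list took 0.888% of female and 1.04% of male gland counts, against 2.09% and 1.77% of eye counts. The called gene, COX5B of cytochrome oxidase, had 1, 0, 16 and 17 counts (40.0-fold higher in eyes, 6.69 to 1626; edgeR, adjusted p 0.0428). Of 6 tested mitochondrially encoded genes, 1 of them through the eyes alone, 1 was lower. This was mt:ATPase6, with 7, 4, 74 and 87 counts (-4.18 ± 1.10, edgeR adjusted p 0.0461), which overlaps its neighbours in the annotation. Glycolysis had 7 tested, 4 through the eyes and 1 through the glands alone: Ldh, above, was higher and the other 6 were lower in glands in both sexes without passing, such as Tpi, triosephosphate isomerase, at 32, 14, 327 and 99 counts (-3.40 ± 0.95, edgeR adjusted p 0.0518).

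Of 93 cytosolic ribosomal protein genes 69 were tested and none was called by edgeR at an adjusted p under 0.05. Their summed share was higher in glands, at 23.4% and 19.6% against 11.7% and 6.90% of eye counts, while their median log2 fold change was -0.45, so the sum and the median differ in sign. The median was 0.11 without the female and 0.02 without the male gland library. A few genes made the sum: RpL36A had 12952, 8960, 2734 and 1841 counts (1.94 ± 0.79, edgeR adjusted p 0.122) and RpS3 had 12091, 8312, 2742 and 1545 (1.96 ± 0.79, 0.119). RpL24 went the other way, with 13, 7, 132 and 37 counts (-3.19 ± 0.97, 0.0633), as did RpL7, with 909, 543, 2924 and 966 (-1.58 ± 0.83, 0.207). Copies of near-identical sequence make single ribosomal values uncertain. Translation factors had 12 of 17 tested higher in glands in both sexes and 0 called, and the proton pump gene VhaAC39-1 had 4678, 6145, 1772 and 2045 counts (1.17 ± 0.79, edgeR adjusted p 0.316).

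Genes of other tissues stood high in the female eye library. Cp15, a chorion protein gene, had 20, 26, 11807 and 25 counts (-4.92 ± 2.96, edgeR adjusted p 0.267). The yolk protein genes Yp1, Yp2 and Yp3 had 135, 423 and 87 counts in female eyes, at most 2 in male eyes and at most 1 in glands. Female heads held the 3 genes at a like share, 0.412% of counts against 0.45% in female eyes. CycB, a mitotic cyclin gene stored in the egg, had 3, 22, 318 and 0 counts (-1.66 ± 4.54, 0.814). The egg-stored genes exu, gcl and pgc had 13, 9 and 7 counts in female eyes and 0, 1 and 0 in male eyes. stau and grk, on the same list, went the other way, with 7 and 1 counts in female eyes and 16 and 2 in male eyes. vas and bcd, of the same list of 12, were at 0 in these 4 libraries and in ovaries.

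Digestive enzyme genes summed to 0.172% of female and 0.477% of male gland counts, 1.69% of female and 0.00319% of male eye counts. Their 7 tested members gave 0 calls. The protease gene Jon25Biii had 1059 counts in female eyes, 9 in male glands and none in the other two libraries. Of 16 haemocyte genes 1 was tested: Nplp2, a neuropeptide-like precursor gene, had 22, 7, 90 and 100 counts (-3.19 ± 1.14, edgeR adjusted p 0.0908), while Hml, eater and NimC1 had at most 2 counts in any of the 4. The part these markers had in the eye values was not tested. Muscle genes took 0.211% and 0.652% of gland counts and 0.757% and 1.28% of eye counts, and 1 of 9 tested was lower: Mlp60A, a muscle LIM protein gene, at 8, 48, 627 and 319 counts (-4.76 ± 1.19, edgeR adjusted p 0.043).

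In 19 genes with at least 30 counts in the higher library of each sex, the gland over eye ratio was above 2-fold one way in females and the other way in males, a rule chosen after the values were seen. RanBP3, a Ran-binding protein gene, had 143 and 241 counts in glands, 1615 in female eyes and 3 in male eyes. Phae2, a serine protease-like gene, had 50, 78, 376 and 1. l(2)efl, a small heat shock protein gene, had 50 in female and 1105 in male glands and 817 and 331 in eyes, and beta-Spec, the beta spectrin gene, 55 and 2 in glands and 11 and 49 in eyes. None passed the test of the tissue difference (edgeR, adjusted p 0.895, 0.885, 0.58 and 0.773).

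**Figure D4:**
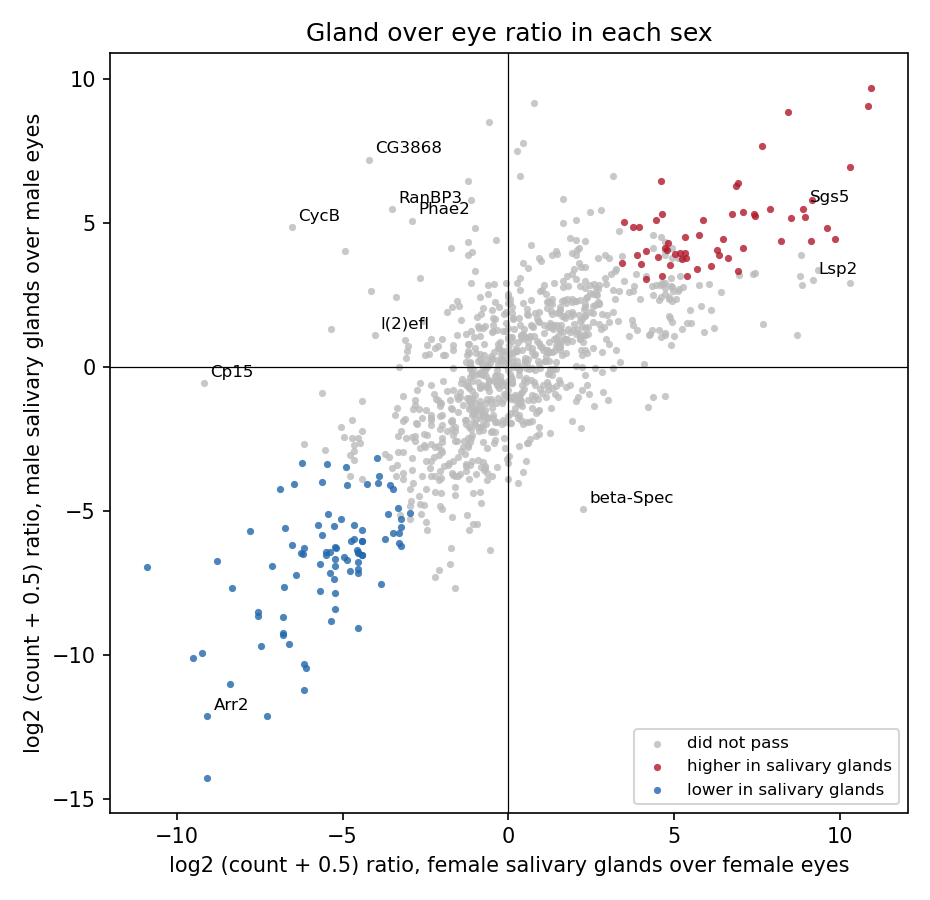
The log2 ratio of salivary glands over eyes in females (horizontal) and males (vertical) of 1023 genes, from scaled counts plus 0.5. Red genes were higher and blue genes lower in glands. All 143 lie in the quadrants of equal direction, which the test favours, while RanBP3, Phae2, l(2)efl and beta-Spec lie in the others.

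Transcript usage was tested in 179 genes with 408 transcripts, and 0% passed at an adjusted p under 0.05 (edgeR's diffSpliceDGE, smallest adjusted p 0.735). At an unadjusted p under 0.05 there were 11 genes, and Simes combination gave 0 calls and 5. Among 121 genes with at least 20 counts in all 4 libraries and more than 1 transcript, 6 had one leading transcript in both gland libraries and another in both eye libraries. CG13917 was the most complete: CG13917-RB took 89.7% and 100% of its counts in glands and 0% in eyes, where CG13917-RD took 100% in both sexes (unadjusted p 0.0287, adjusted 0.735).

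Xe7-RA took 88.5% and 82.3% of its gene's counts in glands, 0% in female and 26.2% in male eyes. RpS3A-RB, of a ribosomal protein gene, took 89.1% and 89.9% in glands against 0% and 44.1% in eyes, and Lk6-RA, of a kinase gene, 57.2% and 100% against 11.1% and 22.8%. VhaAC45 and asrij differed less, and none of the 6 passed the test. trpl-RB took 85.8% and 67.0% of trpl counts in eyes and 0% in glands, where trpl had only 2 counts per library (unadjusted p 0.0441, adjusted 0.735). Where transcripts share exons, these shares depend on how the authors' software divided the reads.

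**Figure D5:**
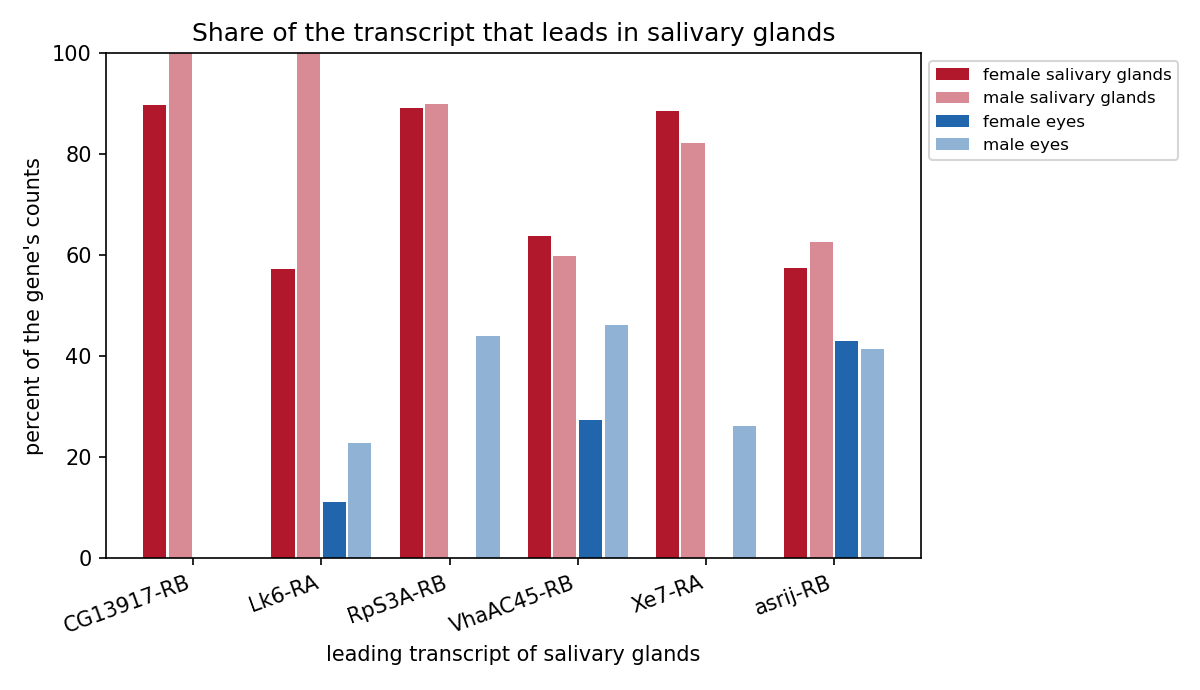
Percent of the gene's counts (vertical axis, bars from 0) taken by the transcript that leads in both salivary gland libraries, for 6 genes. Red bars are glands and blue bars eyes, dark for females and light for males. CG13917-RB is at 0% in both eye libraries, and asrij-RB lies between 41.5% and 62.6% in all 4.

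The enriched gene qtc, named for its effect on male courtship, had 900, 564, 904 and 3313 counts, with both gland values below both eye values but the female libraries nearly equal (-1.60 ± 1.14, edgeR adjusted p 0.341). By transcript, qtc-RA took 29.7% and 54.4% of gland counts and 0% and 7.26% of eye counts. qtc-RI took 79.8% of male eye counts against 5.16% of female eye, 13.4% of female gland and 0% of male gland counts, and qtc-RH 76.8% of female eye counts against 0.321% in male eyes. The eye libraries thus differed from each other in their leading qtc transcript.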

How the data were processed

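The authors deposited estimated counts and TPM per transcript for 31089 transcripts, and whole-number counts of reads per library. The tools Minimap2, Salmon and edgeR and the build BDGP6 appear, per the submitters' processing notes, with neither version nor role. For 31048 transcripts the ID matched the BDGP6 annotation (release 115), and their estimated counts were summed per gene and rounded to whole numbers. TPM, the authors' own, served only to compare genes within these amplified libraries. Whether such an order follows RNA levels before amplification was not tested. Genes were fitted as tissue plus sex by robust quasi-likelihood in edgeR 4.0.16 (R 4.3.3) after TMM scaling, which used genes with 10 or more counts in 2 or more libraries, and diffSpliceDGE tested transcripts under the same minimum. Standard errors are the absolute fitted log2 fold change over the square root of the quasi-likelihood F statistic. They restate the p-value and are no separate measure of spread. Intervals are exact binomial at 95% on counts, and with PCR reads they cover counting error only. Folds against 0 used 3 counts per library after TMM scaling. These were 18.5 and 20.5 CPM in female and male glands and 18.7 and 31.7 in female and male eyes. The TMM factor was 0.754 in male eyes, against 1.07 and 1.11 in female and male glands and 1.12 in female eyes. The fit was also run on simulated counts with less spread than these data (common dispersion 0.384) and no difference between the sexes. That run set no limit that the fit could fail, so it gives no support to the calls.

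Sexes served as pairs by the labels, not as replicate animals. Members, the 32 gene lists and the tests were chosen with earlier results of these data known. Named genes were drawn from list members by smallest p (up to 6 per list), the 12 smallest p and 12 largest folds of each direction, the 5 most counted genes of each library, qtc and the leading-transcript changes; not every such list member is printed, and any other named gene, such as Sgs3, Sgs4, ng1, ng2, Spp, gny or RanBP3, was chosen after its values were seen. DESeq2 1.42.0 and limma 3.58.1 served as alternatives. Gene lists matched by name pattern were trimmed of unrelated genes after seeing the data. Whether counting used strand is not given in the sources, so overlapping genes are uncertain.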

Additional observations from a re-analysis of the deposited data

Results flagged for a closer look

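Some sums and genes went one way in females and the other way in males, and the difference between the sexes was not tested. Digestive enzyme genes took 0.172% of female gland and 1.69% of female eye counts, but 0.477% of male gland and 0.00319% of male eye counts. Heat shock and chaperone genes took 0.34% of female gland and 0.749% of female eye counts, but 1.2% of male gland and 0.345% of male eye counts.

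Single genes did the same. RanBP3 had 143 counts in female and 241 in male glands, 1615 in female and 3 in male eyes. Phae2 had 50 and 78 in glands and 376 and 1 in eyes. beta-Spec had 55 and 2 in glands and 11 and 49 in eyes, and l(2)efl 50 and 1105 in glands and 817 and 331 in eyes.

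Libraries outside the comparison held a few counts of the tissue markers. The glue list had 4 counts in ovaries and 5 in testes, and the rhodopsin list 7 in ovaries and 17 in testes, all above 3 counts.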

How the results depend on the processing

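Without the sex term, and so with no pairing block, 148 genes were higher and 174 lower in glands. With all 6 somatic libraries there were 201 and 178, with upper-quartile scaling 162 and 164, and with limma-voom 109 and 124. No gene passed at a minimum of 30 counts or with rRNA-named rows and qtc left out, 0 in both directions. Leaving out 1 library gave 0 to 94 higher and 0 to 33 lower genes. By construction the count minimum then removes most genes counted in the tissue left with 1 library, so 61 of the 143 called genes were tested without an eye library and 99 without a gland library, and the lone library was assumed to vary like the pair. DESeq2 gave 66 higher and 93 lower genes, with 40 adjusted p-values missing. Library totals, which moved the median log2 of all genes to 0.23, gave 56 and 65, and no low-count filter 72 and 90. Transcript usage gave 0 calls in every setting run (no sex term, 20-count minimum, Simes).

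Of 97 genes whose fold the text gives, 66 were called, and none of these changed direction in a setting where it was tested. All settings refit the same gland and eye counts, so this gives no support to the calls. Over all 97 genes and settings, 772 values stayed on their side of the threshold, 213 lost a call, 109 gained one and 14 changed direction. RanBP3 turned to -2.002 without the sex term, -0.16 with 6 libraries and -0.35 with limma-voom, and lay between -3.38 and 4.83 with 1 library left out. Phae2 turned to -1.49 without the sex term and -0.13 with limma-voom, and lay between -2.87 and 4.76. l(2)efl lay between -3.63 and 1.23 and beta-Spec between -3.87 and 0.99. The ribosomal protein median lay between -0.90 and 0.11. The causes were not tested. A count of 0 allows a level of up to 19.8 to 23.9 per 1000000 before scaling. After TMM scaling, as used for folds against 0, this is 18.5 to 31.7.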
